A study of Mus musculus with 2 samples.

Results

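Liver endothelial cells were examined in a single-cell RNA-seq library from mice bearing 4T1 liver metastases and treated with CBL0137. They were selected on transcripts: a cell barcode was taken when Stab2, Clec4g, Kdr, Ptprb, Oit3 and Egfl7 together had at least 3 unique molecular identifiers (UMIs, each 1 captured transcript), C1qa, C1qb and C1qc together at most 2, and Cd3d, Cd3e and Cd3g together at most 1. The treatment group was the hashtag with most UMIs, when it had at least 10 and at least 3 times those of the next hashtag. These conditions gave 538 barcodes, of 4483 that could be assigned to a group, 4830 in the library and 14421 in the whole series. Of the 538 barcodes, 35 belonged to the vehicle, 116 to the low dose and 387 to the high dose.

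Sinusoidal endothelial cells line the capillaries of the liver lobule. Their wall is perforated by fenestrae, and they clear waste molecules and small particles from blood through the stabilins (Stab1 and Stab2), the mannose receptor (Mrc1) and the Fc receptor Fcgr2b. They also make coagulation factor VIII (F8), release growth signals such as Wnt2, Bmp2 and Hgf to neighboring hepatocytes, and display antigen to lymphocytes that pass through the sinusoid.

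CBL0137 is a curaxin, a compound that binds DNA, loosens it from histones and traps the histone chaperone FACT on chromatin. It was given by hepatic arterial infusion to BALB/cAnNCrl mice with liver metastases of 4T1, a mouse mammary carcinoma line. Cells were collected 5 days after treatment, and those of 2 mice were pooled in each group before hashing. The vehicle group carried hashtag A0301, the low-dose group A0305 and the high-dose group A0310, and all 3 groups bore tumors and underwent infusion. The sources used here gave no amounts for the low and the high dose. The hashtag barcodes that set the group of every cell are shown because all comparisons rest on them:
A0301: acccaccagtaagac
A0305: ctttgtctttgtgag
A0310: ccgattgtaacagac

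Each group was thus 1 pooled sample in 1 library. There was no replicate, so that no test was run, and every interval below is a 95% interval that covers counting error only. The labels describe leukocytes collected over a density gradient, and the study's methods describe CD11b+ cells isolated with beads. Endothelial cells were not the target of either procedure, so a share below is a share of the recovered barcodes and not of the cells of the liver. The library examined is labelled spleen, while its files are named for liver. In the library labelled liver, 65 of 9591 barcodes met the same conditions, but 98.6% of their UMIs of the 6 genes came from Egfl7, and they held 0 UMIs of Stab2, 0 of Oit3 and 1 of Clec4g. The library labelled spleen therefore carried the sinusoidal transcripts, which goes against its tissue label. Barcode sequences were shared by the libraries in 15 cases, and 2 of these were among the 538.

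The 538 barcodes were of different kinds. In 480 of them the 6 selecting genes took at least 1 in 1000 UMIs and markers of hepatocytes, Kupffer cells, neutrophils, T and NK cells and B cells together took under 5%. These barcodes are called endothelial-rich. This division was made after the values had been seen. They had a median of 1888.5 UMIs and 901.5 genes, and 19 sinusoidal markers outside the selecting genes took a median of 152 UMIs per 10000, while 20 general endothelial markers such as Pecam1 and Cdh5 took 57.9. The other 58 barcodes are called endothelial-poor, and with a median of 25199.5 UMIs they were far deeper. There the same markers took medians of 3.35 and 2.50 UMIs per 10000, although at this depth 94.8% and 93.1% of the barcodes held at least 1 such UMI, against 100% and 98.3% of the endothelial-rich ones. In 38 of these 58, all UMIs of the selecting genes came from Egfl7 alone. Primary granule genes of neutrophil precursors (Mpo, Elane, Prtn3 and Ctsg together) reached at least 5 UMIs in 30 of the 58, the proliferation genes Mki67 and Top2a in 31, and keratin genes in 10.

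The endothelial-poor barcodes, 10.8% of the members by number, held 57.4% of all member UMIs. Their part was 61.6% in the vehicle, 73.8% at the low dose and 48.3% at the high dose. By these marker levels the label of liver endothelial cells did not hold for the endothelial-poor barcodes. In the endothelial-rich barcodes the medians met it, but not each barcode did: the 5% limit used no monocyte or dendritic cell markers, and the deepest vehicle barcode, with 27.7% of the UMIs of its set, and the deepest low-dose barcode, with 6.06%, carried genes of such cells that are given with the values below. At the edge of the rule, 35 of the 58 barcodes with 3 selecting UMIs were endothelial-rich, and 96 barcodes lay just outside with 2. Just below the limit of 1 in 1000 were 7 barcodes, and just above it 10.

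**Figure D1:**
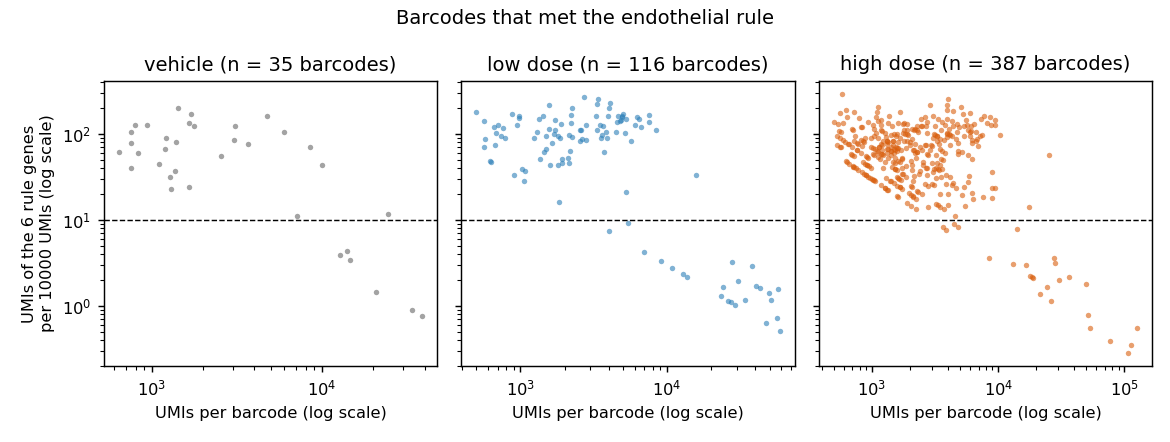
UMIs per barcode (x axis, log scale) against UMIs of the 6 selecting genes per 10000 UMIs (y axis, log scale) for the 538 barcodes, 1 point each, by group, with a dashed line at 10 per 10000. The 480 endothelial-rich barcodes lie above the line with a median of 1888.5 UMIs, and most of the 58 others lie below it with a median of 25199.5.

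Barcodes that met the selection took a larger share of the library at the higher dose. They were 35 of 820 assigned barcodes in the vehicle (4.27%, exact Clopper-Pearson interval 2.99% to 5.89%), 116 of 1318 at the low dose (8.80%, 7.33% to 10.5%) and 387 of 2345 at the high dose (16.5%, 15.0% to 18.1%). The 3 intervals did not overlap. The endothelial-rich barcodes alone followed the same order, with 3.41% (2.28% to 4.90%), 6.90% (5.60% to 8.41%) and 15.4% (14.0% to 16.9%). After every barcode was thinned to 1000 UMIs and shallower ones were left out, the shares kept this order at 2.35%, 6.09% and 12.8%.

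The denominator moved with the groups as well. Barcodes in which neutrophil markers took under 5% of UMIs numbered 454 in the vehicle, 699 at the low dose and 2108 at the high dose. Among these, barcodes that met the selection, some of them endothelial-poor, were 7.27% (5.06% to 10.1%), 15.7% (13.1% to 18.7%) and 18.2% (16.5% to 19.9%). The intervals of the low and the high dose thus overlapped. Hashtag calling with HTODemux kept 865 barcodes at the high dose. The shares of barcodes that met the selection were then 4.50%, 8.84% (7.35% to 10.5%) and 12% (9.93% to 14.4%), so that the intervals of the doses overlapped here too. The median UMIs of the leading hashtag in endothelial-rich barcodes were 846.5 in the vehicle, 571 at the low dose and 482 at the high dose, and the part of these values in the shares was not tested.

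**Figure D2:**
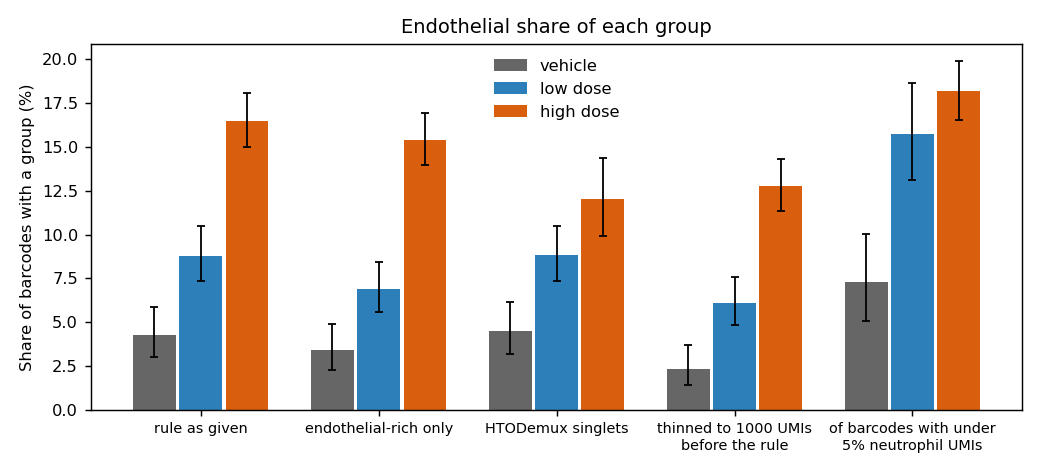
Selected barcodes as a percentage of assigned barcodes (y axis) in the vehicle, low-dose and high-dose groups, under 5 settings of the selection, with exact 95% intervals as bars. The order of the shares is vehicle, low dose, high dose in each of the 5, while with few neutrophil transcripts in the denominator the low and the high dose lie close together.

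Expression was summed over the barcodes of a group and scaled to CPM, the UMIs of a gene per 1000000 UMIs of the group. A gene was compared where the mean level came to at least 20 UMIs in the group with fewer UMIs, and a difference of 2-fold or more is given as past 2-fold. Over all 538 barcodes, 1741 genes were compared between the high dose and the vehicle, of which 105 (6.03%) were past 2-fold higher and 93 (5.34%) lower. Between the low dose and the vehicle, 67 of 1756 (3.82%) were higher and 41 (2.33%) lower. Between the high and the low dose, 349 of 6368 (5.48%) were higher and 338 (5.31%) lower.

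Many of the largest of these differences sat in the endothelial-poor barcodes. Wfdc2, an epithelial secreted protein, was listed at 0 UMIs in the vehicle and at 776 CPM at the high dose, where 98.9% of its UMIs came from endothelial-poor barcodes. Likewise, 97.0% of the high-dose UMIs of Krt8, a keratin of simple epithelia, and 97.8% of those of Slpi, a protease inhibitor of epithelium and neutrophils, came from them. Among the genes lower at the high dose were the granule genes Mpo (935.8 CPM in the vehicle, 106.3 at the high dose) and Ctsg (931.5 and 66.5 CPM), with 98.0% to 100% of their UMIs in endothelial-poor barcodes in every group. Il1b, a cytokine of myeloid cells, and Col3a1, a fibrillar collagen, led the low dose over the vehicle, with 88.6% and 100% of their low-dose UMIs in such barcodes.

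Gbp4 and Cxcl9 stood apart among the 12 genes with the largest high-dose excess over the vehicle, because 1.70% and 4.52% of their high-dose UMIs came from endothelial-poor barcodes. The comparison was therefore repeated in the 480 endothelial-rich barcodes, 28 in the vehicle, 91 at the low dose and 361 at the high dose. They held 88326, 259299 and 964018 UMIs, with medians of 1397.5, 2150 and 1881 UMIs per barcode. The vehicle was thus the least precisely measured group, and more genes could be compared between the doses than with the vehicle. The mitochondrial share was high and alike, at medians of 14.9%, 17.7% and 15.9%.

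In the endothelial-rich barcodes, 17 of 578 compared genes (2.94%) were past 2-fold higher at the high dose than in the vehicle and 23 (3.98%) lower. At the low dose against the vehicle, 58 of 605 (9.59%) were higher and 37 (6.12%) lower. At the high against the low dose, 34 of 2196 (1.55%) were higher and 63 (2.87%) lower. The median log2 ratio of all compared genes was -0.02, 0.02 and -0.10 in the same order. When the deepest barcode of each group was left out, the genes past 2-fold went from 6.92% to 3.03% of those compared at the high dose against the vehicle (5 higher and 7 lower of 396), from 15.7% to 7.56% at the low dose against the vehicle (21 higher and 10 lower of 410), and from 4.42% to 4.73% between the doses (33 higher and 65 lower of 2072).

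Several interferon-responsive genes were higher at the high dose than at the low dose and in the vehicle. Gbp4, a guanylate-binding GTPase of antimicrobial defense (GRCm38 chr5:105115767-105139586), was at 45.3 CPM in the vehicle (exact Poisson interval 12.3 to 116), 50.1 CPM at the low dose (26.7 to 85.7) and 599.6 CPM at the high dose (551.7 to 650.5). The log2 ratio of the high to the low dose was 3.58 (2.79 to 4.50), and that of the high dose to the vehicle 3.73 (2.36 to 5.61), which is 13.2-fold. The vehicle and the low dose overlapped, and the high dose lay above both. Of the 4 vehicle UMIs, 75.0% lay in 1 barcode.

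Iigp1, an immunity-related GTPase, was likewise highest at the high dose, with 159 CPM in the vehicle (86.7 to 266), 116 CPM at the low dose (78.1 to 165) and 801 CPM at the high dose (745 to 859). Ly6a, the surface protein Sca-1, which marks capillary and arterial endothelium and is inducible by interferon, was at 192 CPM in the vehicle (112 to 308), 77.1 CPM at the low dose (47.1 to 119) and 895 CPM at the high dose (837 to 957). The log2 ratios of the high to the low dose were 2.79 (2.27 to 3.37) for Iigp1 and 3.54 (2.90 to 4.26) for Ly6a. Against the vehicle they were 2.34 (1.58 to 3.21) and 2.22 (1.53 to 3.00).

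The chemokines Cxcl9 and Cxcl10, ligands of CXCR3 that attract activated T cells, had few UMIs outside the high dose. Cxcl9 (GRCm38 chr5:92321347-92328079) had 1 UMI in the vehicle, 7 at the low dose and 380 at the high dose, which is 11.3, 27.0 and 394 CPM. Cxcl10 (chr5:92346638-92348889) had 0, 2 and 282 UMIs, or 0, 7.71 and 293 CPM. The log2 ratio of the high to the low dose was 3.87 (2.81 to 5.19) for Cxcl9 and 5.25 (3.38 to 8.30) for Cxcl10. With the 0 vehicle UMIs set to 3 counts, Cxcl10 was 8.61-fold higher at the high dose. This value is not an exact limit, and Cxcl10 had fewer UMIs than the minimum for a comparison with the vehicle. The high-dose UMIs were spread over cells, with 13.2% of those of Cxcl9 and 15.2% of those of Cxcl10 in the leading barcode. Of 11 chemokine ligands, 4 were compared between the doses, with a median of 2.21. The others were Cxcl16 at 0.56 and Cxcl2 at -2.21, the latter through 1 low-dose barcode described below.

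A transcription factor of the interferon response and a further immunity-related GTPase had the same direction between the doses. Irf1, which is induced by interferon and activates its target genes, was at 11.3 CPM in the vehicle, 27.0 CPM at the low dose and 135 CPM at the high dose, the first of these being 1 UMI. Irgm1, the GTPase, was at 45.3, 27.0 and 195 CPM. High against low dose, the log2 ratios were 2.32 (1.24 to 3.66) and 2.85 (1.78 to 4.19). Their UMIs were too few in the vehicle for a comparison with it.

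Of 20 interferon-stimulated genes on the list, 8 could be compared between the high and the low dose in endothelial-rich barcodes. All 8 had a log2 ratio above 0. Of them, 5 were past 2-fold higher, among them Rsad2, Gbp4, Irgm1 and Iigp1, beside 1.55% of all compared genes. None was past 2-fold lower, and the median was 2.53 against -0.10 over all compared genes. Bst2, Ifi44 and Ifi27l2a, at log2 ratios of 0.13, 0.47 and 0.64, were the remaining members. Summed over the list, the level was 906 CPM in the vehicle, 1041 CPM at the low dose and 3292 CPM at the high dose (log2 ratio of high to low dose 1.66, 1.48 to 1.85). Against the vehicle 3 members could be compared, with 2 past 2-fold higher, beside 2.94% of all compared genes, and a median of 2.34. Rsad2, an antiviral enzyme, is a case apart because 191 of its 217 high-dose UMIs lay in 1 barcode, and without the leading barcode of each group its log2 ratio of high to low dose went from 4.28 to 1.80.

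The other assigned barcodes of the same library, which did not meet the selection, are given for comparison. They also held endothelial transcripts, and more of them at the higher dose. In the vehicle, low-dose and high-dose groups the 6 selecting genes summed to 18.7, 54.5 and 142 CPM there. The 19 sinusoidal markers summed to 386, 475 and 737 CPM. Levels in these barcodes can include their own expression, and the parts of free RNA and of endothelial cells outside the selection were not tested. Gbp4 was at 22.3, 23.2 and 69.9 CPM there, Iigp1 at 16.8, 17.9 and 76.6 CPM, and Cxcl10 at 7.72, 19.7 and 36.6 CPM in the vehicle, low-dose and high-dose groups. Each of these high-dose levels was below that of the endothelial-rich barcodes, and each was also above those of the other groups. Irf1 was at 65.8, 71.0 and 78.5 CPM in the other barcodes, above the endothelial-rich level in the vehicle and at the low dose and below it at the high dose. After thinning to 500 UMIs, the share of endothelial-rich barcodes with a Gbp4 UMI was 0 of 28 in the vehicle, which allows up to 12.3% by the exact interval, 1 of 91 at the low dose (1.10%, 0.0278% to 5.97%) and 69 of 361 at the high dose (19.1%, 15.2% to 23.6%). Unthinned shares were 7.14%, 9.89% and 46.3%. The thinned share in the other high-dose barcodes, which had a median of 2800 UMIs against 1881, was 3.63%.

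**Figure D3:**
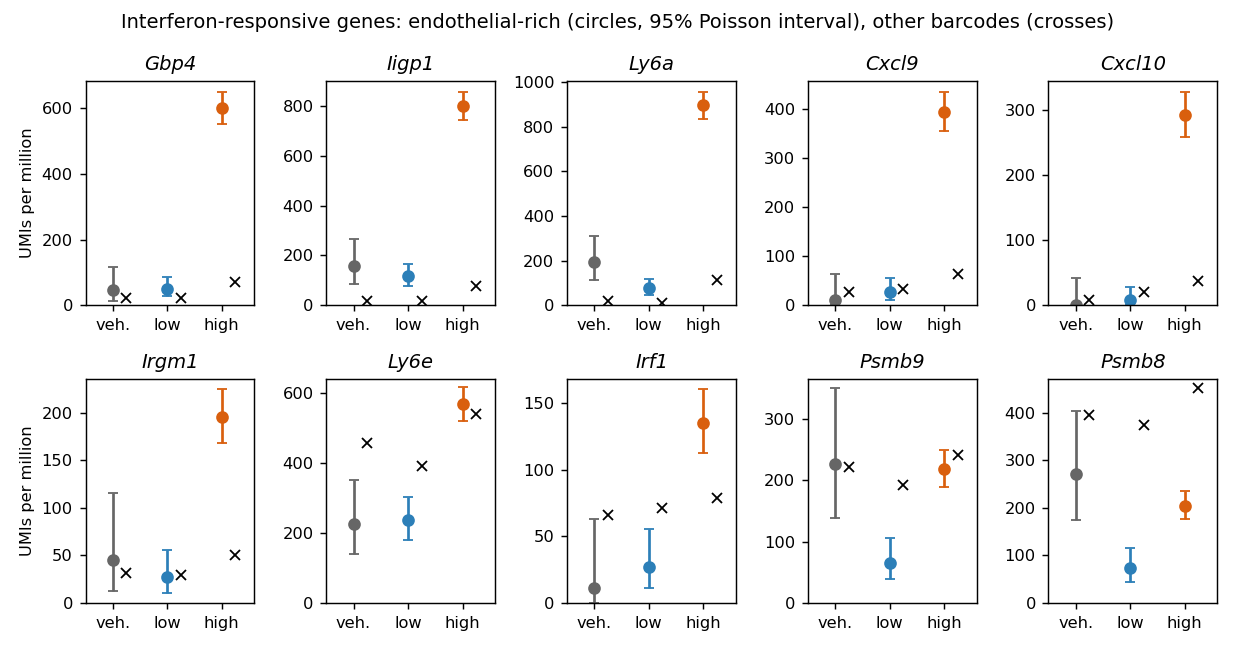
Level in CPM (y axis, linear) of 10 interferon-responsive genes in endothelial-rich barcodes of the vehicle, low-dose and high-dose groups (circles, exact 95% Poisson intervals) and in the other assigned barcodes (crosses). Gbp4, Iigp1, Ly6a, Cxcl9 and Cxcl10 at the high dose lie above the intervals of both other groups and above the crosses, while for Psmb8 and Psmb9 the intervals of the vehicle and the high dose overlap, for Psmb9 through 1 vehicle barcode.

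Promoters are shown for genes higher at the high than at the low dose in summed counts, which for Psmb8 and Psmb9 were not higher than in the vehicle. Of the genes of 5 lists (interferon, chemokine, NF-kB, MHC class I and capillary) that were past 2-fold higher at the high than at the low dose, there were 12, and 7 of them were read from the RefSeq promoter table (GRCm38.p6). The 250 bases before the start were searched on both strands for GAAA and GAAA with any 2 bases between them, the core of the interferon-stimulated response element (ISRE), and TTC and GAA with any 3 bases between them (TTCNNNGAA), the gamma-activated site (GAS). A match was found in 5 of the 7 (71.4%), while 978 of 32851 promoters (2.98%) held the first pattern, 2306 (7.02%) the second and 9.66% either. The 5 lists were chosen by known function, interferon response included, and their genes by the ratios above. A larger share than over all promoters could follow from that choice alone, so no conclusion is drawn from it. Cxcl9 and Psmb9 held neither in this window. The matches are in capitals and describe letters only, not binding.
Cxcl10, chr5:92349068-92349127, minus strand, ISRE pattern starting 213 bases before the start: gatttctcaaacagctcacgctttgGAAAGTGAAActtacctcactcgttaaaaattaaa
Irgm1, chr11:48871421-48871472, minus strand, overlapping ISRE patterns starting 30 and 24 bases before: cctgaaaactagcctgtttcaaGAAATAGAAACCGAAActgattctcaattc
Rsad2, chr12:26456538-26456597, minus strand, ISRE pattern on the reverse strand, 120 bases before: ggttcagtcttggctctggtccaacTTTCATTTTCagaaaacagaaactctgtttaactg
Irf1, chr11:53769899-53769957, plus strand, GAS pattern 90 bases before: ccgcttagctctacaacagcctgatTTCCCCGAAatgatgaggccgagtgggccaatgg
Psmb8, chr17:34198073-34198131, plus strand, GAS pattern 97 bases before: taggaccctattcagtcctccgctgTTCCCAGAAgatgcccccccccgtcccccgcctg

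Antigen presentation genes differed among themselves. Of 11 MHC class I and processing genes, 8 were compared between the high and the low dose. The 2 past 2-fold higher were the immunoproteasome subunits Psmb8 and Psmb9. Over all genes compared between these doses, 1.55% were past 2-fold higher. Psmb8 was at 73.3 CPM at the low and 204 CPM at the high dose, a log2 ratio of 1.48 (0.80 to 2.24), and Psmb9 at 65.6 and 218 CPM, a log2 ratio of 1.73 (1.02 to 2.54). In the vehicle these subunits were at 272 and 226 CPM, of which 70.8% and 90.0% came from 1 barcode. Without the deepest barcode of each group, Psmb8 was at 110 CPM (44.1 to 226) in the vehicle, still overlapping the high dose at 203 CPM (176 to 234), and Psmb9 at 31.3 CPM (3.80 to 113), which is 2 UMIs, below the high dose at 218 CPM (190 to 250). B2m was at 1811, 2229 and 2281 CPM and H2-K1 at 951, 1311 and 1457 CPM. The median of the list was 0.15.

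In the vehicle, class II genes were set by 1 cell. Cd74, the invariant chain, was at 2638 CPM in the vehicle, 88.7 at the low dose and 245 at the high dose, and all 233 vehicle UMIs lay in the deepest vehicle barcode. This barcode of 24509 UMIs also held 161 of 163 vehicle UMIs of H2-Aa, 430 of 450 of Cst3, all 17 of Xcr1 and all 8 of Flt3, genes of conventional dendritic cells, beside 9 UMIs of Stab2 and 1 of Clec4g. It held 27.7% of the vehicle UMIs. The 12 genes with the largest deficit at the high dose against the vehicle were Naaa, H2-Aa, H2-Ab1, H2-Eb1, Cst3, Crip1, Cd74, Ccl6, Ppt1, Cd52, Irf8 and Rspo3, and for each of them 78.4% or more of the vehicle UMIs lay in a single barcode. Without the deepest barcode, class II genes summed to 62.7 CPM in the vehicle. Between the high and the low dose, Cd74 was higher (log2 ratio 1.46, 0.84 to 2.15), and 35.3% of class II high-dose UMIs lay in 1 barcode.

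Genes of sinusoidal identity showed a different order, with the low dose highest. Stab1, the second stabilin, was at 1155 CPM in the vehicle (942 to 1402), 1890 CPM at the low dose (1726 to 2065) and 1072 CPM at the high dose (1007 to 1139). Mrc1, the mannose receptor, was at 769.9, 1500 and 677 CPM, and Dnase1l3, a secreted nuclease that clears chromatin from blood, at 849, 2495 and 1306 CPM. For all of them the low dose lay above the intervals of the other groups. Vehicle and high dose overlapped for Stab1 and Mrc1. For Dnase1l3 the log2 ratio of the high dose to the vehicle was 0.62 (0.28 to 0.98), and without the deepest barcode of each group it was 0.32 and these intervals overlapped.

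All 19 sinusoidal markers outside the selecting genes were compared between the high and the low dose. The log2 ratio was below 0 for 17 of them, with Lyve1 (0.10) and Fam167b (0.06) as the exceptions, and only Mrc1 was past 2-fold lower (-1.15, -1.33 to -0.96). The median was -0.67 against -0.10 over all compared genes, of which 2.87% were past 2-fold lower. At the low dose against the vehicle, 17 of 18 were above 0 and 6 past 2-fold higher, which were Dnase1l3, F8, Aqp1, Meis2, Il6st and Tspan7. Over all compared genes 9.59% were past 2-fold higher. The median was 0.94 against 0.02 over all compared genes. Without the deepest barcode of each group, Aqp1 (0.68), Il6st (0.75) and Tspan7 (0.74) were no longer past 2-fold, 16 of 17 were above 0 and the median was 0.61. At the high dose against the vehicle, none of 18 was past 2-fold, with a median of 0.26, which became -0.16 without the deepest barcode of each group.

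These markers share cells with the selecting genes, whose own levels went the same way, so their order is given as a description. The selecting genes took a median of 78.2 UMIs per 10000 in the vehicle, 111 at the low dose and 67.5 at the high dose. Stab2, one of them, was at 521, 1381 and 671 CPM. Over all 538 barcodes the sinusoidal median of the high against the low dose was 0.21, the opposite sign, with the larger part of endothelial-poor RNA at the low dose given above. Among endothelial-rich barcodes with at least 40 selecting UMIs per 10000, the median was -0.50.

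**Figure D4:**
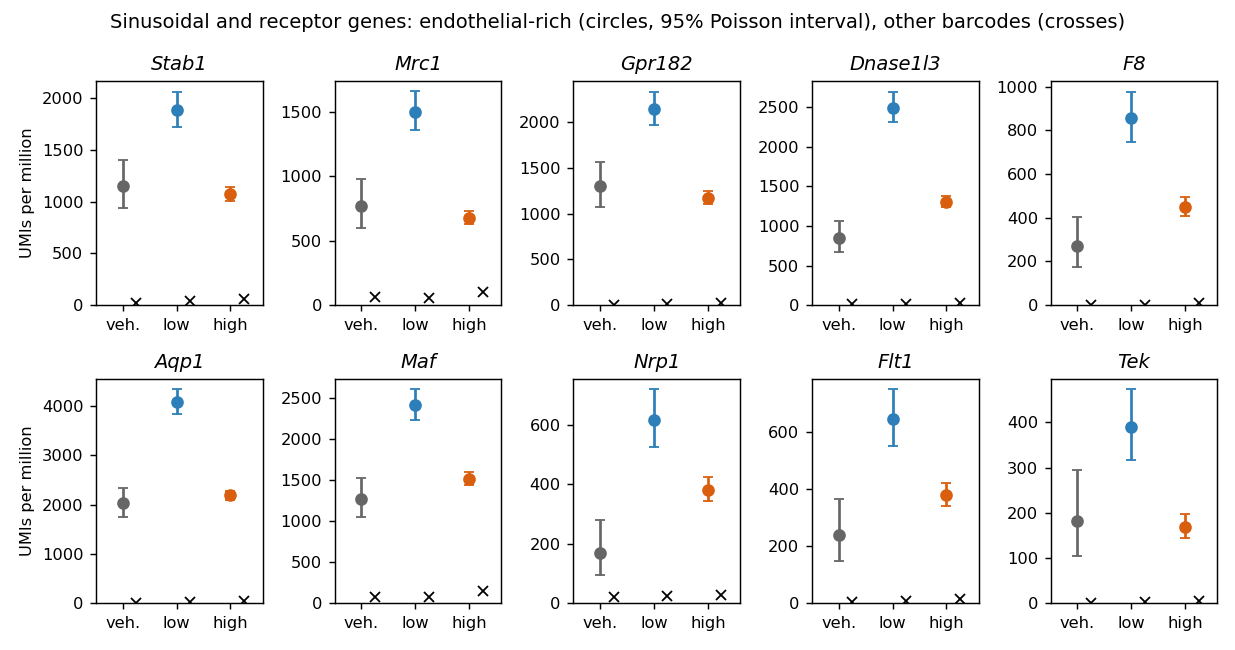
Level in CPM (y axis, linear) of 10 sinusoidal and vascular receptor genes in endothelial-rich barcodes (circles, exact 95% Poisson intervals) and in the other assigned barcodes (crosses) of the vehicle, low-dose and high-dose groups. The low-dose circle is the highest for each of the 10 genes, and the crosses lie below every circle.

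Vascular growth factor receptors shared the low-dose peak. Nrp1, a co-receptor of VEGF and semaphorins (GRCm38 chr8:128358604-128503363), was at 170 CPM in the vehicle (95.1 to 280), 617 CPM at the low dose (525 to 720) and 382 CPM at the high dose (344 to 423), and the 3 intervals did not overlap. It was past 2-fold higher than the vehicle at both the low dose (log2 ratio 1.86, 1.10 to 2.73) and the high dose (1.17, 0.43 to 2.02). Flt1, a VEGF receptor, was at 238, 644 and 380 CPM, and Tek, the angiopoietin receptor, at 181, 390 and 169 CPM. Tek was the only gene of its list past 2-fold lower at the high than at the low dose (-1.20, -1.57 to -0.83), beside 2.87% of all compared genes.

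Of 15 VEGF, Tie and TGF-beta receptor signaling genes, 9 were compared between the low dose and the vehicle, all above 0, with Flt1, Nrp1, Nrp2, Tek and Id3 past 2-fold higher and a median of 1.10, beside 9.59% and 0.02 over all compared genes. Without the deepest barcode of each group, 7 of 9 were above 0, Tek (0.68) and Id3 (0.89) were no longer past 2-fold, Nrp2 was at 1.01, Bmpr2 went from 0.26 to -0.11 and the median was 0.68. Between the high and the low dose, 12 of 14 were below 0, with a median of -0.56. Notch1 was at 147, 366 and 242 CPM, and its ligand Dll4 at 34.0, 120 and 73.6 CPM. Cldn5, a tight junction protein, was at 125, 444 and 229 CPM and was among the 6 genes with the largest low-dose excess over the vehicle, with Raph1, Nrp1, Klf7, Adam23 and F8.

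Of 12 hemostasis genes, the 4 that could be compared, factor VIII among them, were lower at the high than at the low dose. F8 (GRCm38 chrX:75172715-75382615) was at 272 CPM in the vehicle (174 to 404), 856 CPM at the low dose (747 to 976) and 449 CPM at the high dose (408 to 494). The low dose lay above both other groups, and the log2 ratio of the high dose to the vehicle was 0.73 (0.13 to 1.38). None of the 24 vehicle UMIs lay in the deepest vehicle barcode, without which the vehicle was at 376 CPM (241 to 560), the intervals of the vehicle and the high dose overlapped and the ratio was 0.28. Thbd, thrombomodulin, which turns thrombin toward protein C, was at 362, 320 and 127 CPM, but 24 of its 32 vehicle UMIs lay in 1 barcode. High against low dose, its log2 ratio was -1.34 (-1.75 to -0.92), the median of 4 compared hemostasis genes was -0.89, and all 4 were below 0.

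Of the angiocrine genes, Bmp2 and Hgf had their highest level at the low dose. Bmp2, which signals iron status to hepatocytes, was at 679, 1223 and 719 CPM, and Hgf, the hepatocyte growth factor, at 113, 293 and 179 CPM. The Wnt ligands of the central vein were low, with Wnt2 at 90.6, 112 and 72.6 CPM and Wnt9b at 1, 0 and 7 UMIs. Over 8 compared angiocrine genes the median of the high against the low dose was -0.66, and over 8 compared basement membrane and matrix genes -0.34. Among the periportal markers, Adam23 was at 351, 1165 and 672 CPM and Ltbp4, a TGF-beta binding matrix protein, at 34.0, 135 and 44.6 CPM.

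Rspo3, the Wnt enhancer of central vein endothelium, also turned on 1 cell in the vehicle. It was at 430 CPM in the vehicle, 50.1 at the low dose and 128 at the high dose, and 37 of its 38 vehicle UMIs lay in 1 barcode of 8510 UMIs. The same barcode held 15 of 19 vehicle UMIs of Vwf and all 28 of Fbln2, genes of larger vessels, and 0 of Stab2 and Clec4g. Lymphatic markers summed to 1, 1 and 5 UMIs in the 3 groups.

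Several genes of the vessel surface, iron export and growth signals were lower at the high than at the low dose. Cd300lg, a lymphocyte receptor of vessel walls, was at 294, 405 and 135 CPM (log2 ratio -1.59, -1.97 to -1.20). The ferroportin gene Slc40a1 was at 125, 185 and 63.3 CPM (-1.55, -2.12 to -0.97) and the growth factor Csf1 at 56.6, 135 and 50.8 CPM (-1.41, -2.06 to -0.74). The medians were -0.46 over 6 leukocyte adhesion genes and -0.71 over 4 complement and acute phase genes. In the adhesion list Vcam1 had too few UMIs to be compared, at 3, 8 and 111.

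Stress and chromatin genes held few changes past 2-fold. The cell cycle inhibitor Cdkn1a, a p53 target, had 5 UMIs in the vehicle, 23 at the low dose and 241 at the high dose, which is 56.6 and 88.7 CPM in the vehicle and at the low dose (log2 ratio of the high to the low dose 1.49, 0.88 to 2.18), while Bax, a death effector under p53, was at 181, 243 and 308 CPM. For Cdkn1a, 47.8% of the low-dose UMIs lay in 1 barcode, and without the leading barcodes its log2 ratio was 2.18. The level in the other assigned barcodes was 104, 118 and 92.1 CPM.

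The remaining lists had few members past 2-fold between the high and the low dose. Medians were -0.39 over 17 general endothelial markers, with Tek the only one past 2-fold, -0.53 over 7 scavenger receptors, with Mrc1 lower, -0.31 over 6 shear-responsive genes, with Thbd lower, and -0.60 over 3 Notch genes. They were -0.27 over 7 immediate early genes, -0.16 over 5 hypoxia and glycolysis genes, 0.05 over 4 cell cycle genes and -0.26 over 10 lipid and iron genes. Macrovascular and capillary markers stood on the other side, with all 6 above 0, Ly6a and Rspo3 past 2-fold higher and a median of 0.52. Of 6 NF-kB response genes, Irf1 was past 2-fold higher and Cxcl2 and Csf1 lower, with a median of -0.60.

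Of 6 compared heat shock and folding genes all were higher at the high than at the low dose and none past 2-fold, with a median of 0.72, and Hsp90ab1 was at 1200, 845 and 1407 CPM. The sign was opposite over all 538 barcodes, at -0.40. The FACT subunits Ssrp1 and Supt16, the targets CBL0137 traps, were at 90.6, 77.1 and 96.5 CPM and at 102, 73.3 and 89.2 CPM. Their intervals overlapped among all groups. The heme oxygenase gene Hmox1 was at 252 CPM at the high dose against 92.6 at the low dose, yet 68.3% of the high-dose UMIs lay in 1 barcode and the log2 ratio without the leading barcodes was 0.22.

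Tm4sf1, a tetraspanin-like protein of growing endothelium, was higher than the vehicle at both doses, at 136, 393 and 393 CPM. Also above the vehicle at both doses were the transglutaminase gene Tgm2 (226, 640.2 and 553 CPM), the ubiquitin ligase gene Nedd4 (147, 309 and 364 CPM), Dynll1 (215, 525 and 501 CPM) and the tubulin gene Tuba1b (226, 478 and 512 CPM). For Nedd4 the intervals of the vehicle and the low dose overlapped. Over all 538 barcodes the log2 ratio of Tuba1b at the high dose to the vehicle was -0.08, the opposite sign. Ly6e, an interferon-inducible surface protein, was at 226, 235 and 566 CPM with log2 ratios of the high dose of 1.32 (0.68 to 2.05) over the vehicle and 1.27 (0.88 to 1.67) over the low dose. Fabp5, a fatty acid binding protein, was at 181, 270.0 and 424 CPM. Without the deepest barcode of each group, the high dose was no longer past 2-fold over the vehicle for Tgm2 (0.82), Nedd4 (0.86), Dynll1 (0.94), Ly6e (0.93) and Fabp5 (0.77) as log2 ratios, and was at 1.09 for Tm4sf1 and 1.34 for Tuba1b.

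Inflammatory cytokine genes of myeloid cells were lower at the high than at the low dose in the summed counts, through 1 barcode. Il1b was at 0, 197 and 27.0 CPM and Cxcl2 at 11.3, 374 and 80.9 CPM, but all 51 low-dose UMIs of Il1b and 91 of 97 of Cxcl2 lay in the deepest low-dose barcode of 15714 UMIs, together with 7 of 7 Ccr2 UMIs. The log2 ratios of the high to the low dose were -2.87 and -2.21. Without the deepest barcode of each group, Il1b had 18 UMIs at the high and 0 UMIs at the low dose. Cxcl2 then had a log2 ratio of 0.22 (-1.08 to 1.79).

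Markers of other cell types were present in the endothelial-rich barcodes, and their part in the results was not tested. The 10 neutrophil markers summed to 872, 764 and 859 CPM, led by S100a9, the 7 Kupffer cell markers to 113, 69.4 and 126 CPM, the 10 hepatocyte markers to 283, 374 and 354 CPM, led by Trf, and the 8 T and NK cell markers to 34.0, 7.71 and 9.34 CPM. The neutrophil, Kupffer cell and T and NK cell lists were higher at the high than at the low dose, with overlapping intervals. Other lists were also higher at the high than at the low dose, the order that the interferon genes had. Monocyte and dendritic markers summed to 577, 158 and 357 CPM, led by Lyz2, erythroid and platelet markers to 351, 127 and 285 CPM, led by Pf4, and B cell markers to 4, 1 and 73 UMIs (45.3, 3.86 and 75.7 CPM), led by Ighm. Epithelial and tumor markers were at 0, 2 and 40 UMIs, and stellate cell and fibroblast markers at 136, 92.6 and 123 CPM. S100a8 and S100a9 together had a median of 2, 1 and 2 UMIs per barcode. No doublet caller was run, and barcodes without a leading hashtag were left out.

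The direction of Gbp4 and of the sinusoidal median between the doses was the same in narrower sets, and that of some interferon-stimulated genes was not. Gbp4 had a log2 ratio of high to low dose of 3.87 in endothelial-rich barcodes called by HTODemux (32, 91 and 90 barcodes), 4.25 with at least 40 selecting UMIs per 10000 (23, 84 and 268) and 2.79 with under 10% mitochondrial UMIs (6, 27 and 105). In the set with under 10% mitochondrial UMIs, Ifi27l2a was at -0.95 and Ifi44 at -0.41, from 0.64 and 0.47 in all endothelial-rich barcodes, and of the interferon-stimulated genes 3 had enough UMIs to be compared, with a median of 2.79. The sinusoidal median of the high against the low dose was -0.78, -0.50 and -0.41 in these sets. That of the low dose against the vehicle was 0.92 and 0.59 in the first and second sets, against 0.61 without the deepest barcode of each group. With under 10% mitochondrial UMIs it was 1.55, and that of the high dose against the vehicle 1.15, but 59.5% of the 41190 vehicle UMIs in this set lay in the deepest vehicle barcode described above by its dendritic cell genes.

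**Figure D5:**
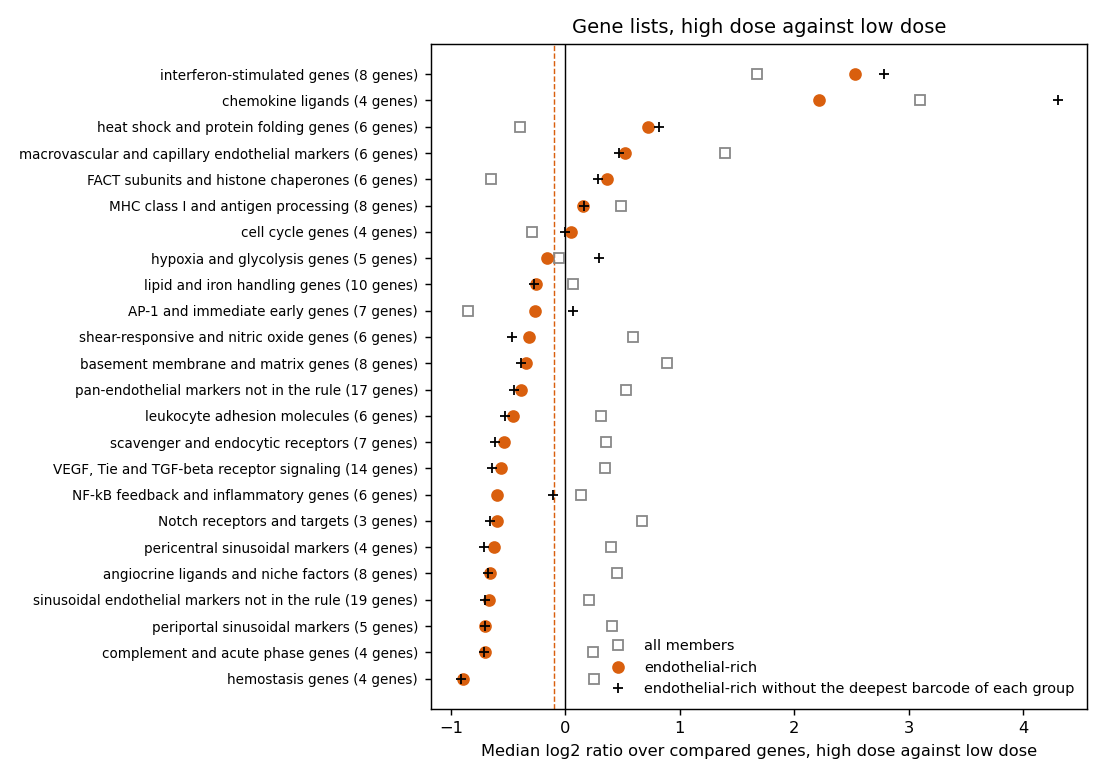
Median log2 ratio of the high to the low dose (x axis) over the compared members of each gene list (y axis), in all 538 barcodes (squares), endothelial-rich barcodes (circles) and endothelial-rich barcodes without the deepest of each group (plus signs). Interferon-stimulated genes lie farthest to the right among the larger lists with 2.53 in endothelial-rich barcodes, and the sinusoidal, heat shock and FACT lists are among those that change side between the squares and the circles.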

How the data were processed

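Droplet single-cell RNA-seq counts (10x Genomics, with hashtag antibodies) were deposited as filtered matrices of UMI counts per gene and barcode, which the authors made with Cell Ranger on mm10. The version is 5.0.0 in the matrix header, 6.0.0 in the submitters' processing notes and 8.0 in the study's methods. The unit is raw counts, not normalized. Gene positions came from GENCODE mouse release 21 (GRCm38) and promoters from RefSeq (GRCm38.p6).

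Members were selected as described, and the members, gene lists and tests were chosen with earlier results of these data known. UMIs were summed per group and scaled to CPM with Python 3.11.15, numpy 2.4.6 and scipy 1.17.1. Intervals at the 95% level were exact Poisson for levels, Clopper-Pearson for shares and conditional binomial for ratios. A count of 0 was set to 3 counts for a ratio. The 6 selecting genes and 6 excluding genes were left out of counts of genes. HTODemux (Seurat 5.3.0, quantile 0.99) was an alternative. Genes named were the 12 with the largest ratio in each direction for the high dose against the vehicle, 6 for each other comparison, without mitochondrial, ribosomal and predicted genes, and members of 38 lists, some of which are not reported here. The scripts were tested on simulated data. No statistical test across groups was made, since each group was 1 pooled sample. Other settings numbered 12, and 6 more were chosen after seeing the data.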

Additional observations from a re-analysis of the deposited data

Results flagged for a closer look

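Barcodes with the selecting transcripts also appeared outside the groups compared. In the library labelled liver, 65 barcodes met the same conditions, with a median of 36993 UMIs, and 0 of them were endothelial-rich. In the library labelled spleen, 25 barcodes met the conditions without a leading hashtag. These 25 held 41 UMIs of Stab2, 121 of Clec4g and 23 of Oit3, with a median of 3518 UMIs per barcode, and could not be placed in a group.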

How the results depend on the processing

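The order of the shares was vehicle, low dose, high dose under every alternative run, and the values moved. For the vehicle, low dose and high dose they were 2.68%, 6.83% and 12.2% with at least 6 selecting UMIs, 1.59%, 4.65% and 10.1% with 200 genes or more and mitochondrial UMIs under 10%, 2.35%, 6.09% and 12.8% after thinning to 1000 UMIs, and 7.27%, 15.7% and 18.2% among barcodes with under 5% neutrophil UMIs. HTODemux moved the high dose to 12%, and the endothelial-rich barcodes moved the low dose to 6.9%. Genes past 2-fold between the high dose and the vehicle numbered 198, against 83 with at least 6 selecting UMIs, 124 with a stricter hashtag rule (20 UMIs and 5 times the next), 5 after thinning, 505 with at least 10 UMIs expected per gene and 80 with at least 40. Between the low dose and the vehicle they numbered 108, against 226 as a mean over cells, 2 after thinning, 322 and 42 with these minimums. Between the high and the low dose they numbered 687, against 432, 32, 1167 and 337 with at least 6 selecting UMIs, thinning and the same minimums.

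In sets chosen after seeing the data, the counts of the high dose against the vehicle were 40 in endothelial-rich barcodes, 12 without the deepest barcode of each group, 49 with HTODemux, 13 with at least 40 selecting UMIs per 10000 and 59 with under 10% mitochondrial UMIs. Those of the high against the low dose were 97, 98, 147, 69 and 55 in the same sets, and those of the low dose against the vehicle 31 without the deepest barcodes and 33 with at least 40 selecting UMIs per 10000. Fewer genes and fewer UMIs were compared in the smaller sets. Of 98 named gene ratios and list medians past 2-fold, 9 changed sign under at least 1 alternative that kept enough UMIs for a comparison, and of 66 list medians under 2-fold over all 538 barcodes, 53 did. Il1b and Cxcl2 without the deepest barcodes, given above, are outside this count because their UMIs were too few. For the high dose against the vehicle the log2 ratios went from -2.96 to 0.115 for Ccl6 and from -1.87 to 0.404 for Irf8 as means over cells, from -2.49 to 0.365 for Plac8 in endothelial-rich HTODemux barcodes, and from -2.78 to 0.481 and 0.322 for Wfdc17 with HTODemux and the stricter hashtag rule. Crip1, at -3.61 in endothelial-rich barcodes, was at 0.155 over all 538 barcodes and with either minimum, 0.716 with HTODemux, 0.204 with the gene and mitochondrial filter, 0.080 without barcodes with 5% or more UMIs of other cell markers, 0.167 without hepatocyte, neutrophil and mitochondrial genes and 0.186 without the 20 most abundant genes. Tuba1b, at 1.18 in endothelial-rich barcodes, was at -0.078, -0.129, -0.048, -0.066 and -0.047 under the same settings, HTODemux left aside. Ltbp4 between the doses went from -1.60 to 0.278 with the gene and mitochondrial filter. Over all 538 barcodes the median log2 ratio of the neutrophil markers at the high dose against the vehicle was -1.35 over 6 compared of 10 markers, and became 4.333 with HTODemux and 4.135 with that filter, each over 4 markers. Between the doses it was -1.86 over 9 and became 0.584 over 8 with HTODemux. The cause was not tested.

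As a mean over cells, 213 genes were past 2-fold higher and 558 lower between the high and the low dose (27.6% higher against 50.8% by summed UMIs). Without the 20 most abundant genes, 452 were higher and 264 lower (63.1%), and between the low dose and the vehicle 47 and 48 (49.5% against 62.0%).

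No paired analysis was possible because each group was 1 pooled sample. With 1 pool per group, treatment, mice and hashtag cannot be told apart. The 28 endothelial-rich vehicle barcodes held 88326 UMIs, which left 578 genes to compare with the high dose against 2196 between the doses.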
